A study of Homo sapiens with 6 samples.

Results

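The caveolae genes were the 7 genes CAV1, CAV2, CAVIN1, CAVIN2, CAVIN3, EHD2 and PACSIN2, of 58735 genes in the count table. The group was chosen by the change of CAV1 between the conditions compared here, and the other 6 were added as known components of caveolae. The level of CAV1 and its change are therefore given as a description with no test. All 7 passed the filter on low counts, which left 14338 genes tested.

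RNA-Seq was measured in BT549, a breast cancer cell line of the basal-like type that has mesenchymal features and lacks the hormone receptors. Of 6 libraries, 3 came from cells treated with DMSO, the solvent control (libraries A, B and C), and 3 from cells treated for 48 h with AS1842856, a small molecule that binds FOXO1 and interferes with its binding to DNA (libraries A, B and C). Both groups were the same cell line, for which the labels list no genetic change, and the dose was 200 nM in the labels and 1 μM in the methods, which was not resolved here. Libraries held 15289500 to 22981832 counts. The comparison asks which transcripts differ in level between cells given the compound and cells given the solvent. Engagement of FOXO1 by the compound is not measured by these libraries. The methods describe the libraries as biological replicates, without saying how the cultures were separated.

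Caveolae are flask-shaped pits of the plasma membrane, rich in cholesterol and sphingolipids. Caveolins insert into the inner face of the membrane and form its oligomeric core, and cavins bind from the cytoplasm and build the striated coat. EHD2, an ATPase that forms rings, and PACSIN2, a membrane-curving protein with an F-BAR domain, act at the neck, where they hold the pit at the surface and shape its opening. Caveolae buffer membrane tension and take part in endocytosis and signalling, and they are abundant in endothelial cells, adipocytes, muscle cells and many mesenchymal cells.

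All 7 caveolae genes were lower in AS1842856-treated cells, and in each of them all 3 treated libraries lay below all 3 DMSO libraries. The change of CAV1 chose the group, so only the other 6 can be set beside the shares over all genes. The falls ran from 1.15-fold for PACSIN2 to 9.64-fold for CAVIN2. Each of the 6 members other than CAV1 passed the test (edgeR's quasi-likelihood test, Benjamini-Hochberg adjusted over all genes tested, threshold 0.05). Among all genes tested, 28.4% were called lower and 30.3% had all 3 treated libraries below all 3 DMSO libraries, so such a pattern was common in this comparison. The median log2 fold change was -0.58 over the 6 members other than CAV1 and 0.0030 over all genes tested, given as a description. Levels are given as FPKM, read numbers scaled to gene length and to library size, and changes as log2 fold changes fitted to counts, with their standard error (SE).

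**Figure D1:**
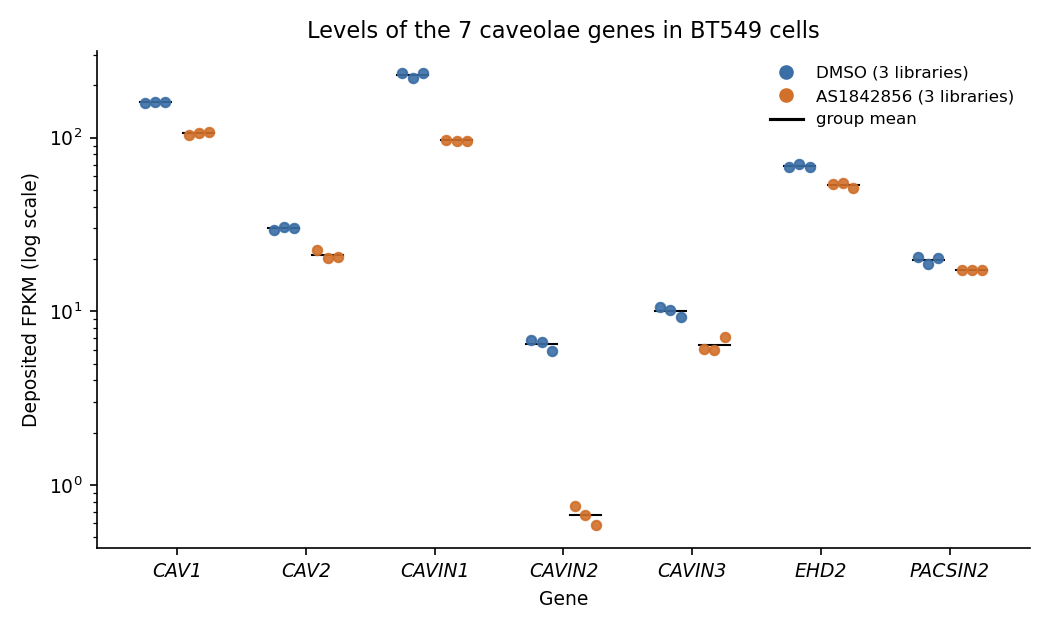
FPKM (log axis) of the 7 caveolae genes in each of the 3 DMSO libraries (blue) and 3 AS1842856 libraries (orange), with group means as black lines. The groups do not overlap for any gene, and the widest gap is that of CAVIN2, from a mean of 6.49 to 0.673.

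Promoter windows from RefSeq (GRCh38.p14), which run from 250 bases before to 50 bases after a start, matched 5 of the 7 members with 13 windows. CAVIN1 and CAVIN3 had no window, and 6 of the 13 were of PACSIN2. The stretches shown are the parts of 3 windows that hold no annotated exon, for CAV1, which names the group, and for CAVIN2 and PACSIN2, the members with the largest and the smallest fall. Capitals mark the letters GGGCGG, a GC box of the kind bound by SP1, and lower case marks all other bases. Each is written 5′ to 3′ on the strand of its gene: CAV1 at chr7:116526112-116526276 (plus strand), CAVIN2 at chr2:191847256-191847338 (minus strand) and PACSIN2 at chr22:43015150-43015399 (minus strand). The CAV1 stretch is the longest free of exons among its 3 windows and lies inside the annotated gene, before a downstream start, whereas the 26 such bases before its first start hold no GC box. The PACSIN2 stretch lies before the outermost of its 6 starts, and its window is the one of the 6 that holds a GC box.
CAV1: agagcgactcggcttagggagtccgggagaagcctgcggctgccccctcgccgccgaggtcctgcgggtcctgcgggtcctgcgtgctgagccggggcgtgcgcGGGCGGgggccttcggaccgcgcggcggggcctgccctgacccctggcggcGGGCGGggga
CAVIN2: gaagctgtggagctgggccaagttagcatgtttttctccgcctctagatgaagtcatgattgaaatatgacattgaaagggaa
PACSIN2: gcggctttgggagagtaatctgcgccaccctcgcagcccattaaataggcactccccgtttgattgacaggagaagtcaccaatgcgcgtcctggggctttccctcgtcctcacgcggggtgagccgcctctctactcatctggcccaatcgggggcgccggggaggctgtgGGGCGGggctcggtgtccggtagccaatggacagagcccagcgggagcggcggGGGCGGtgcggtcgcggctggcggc

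The forkhead letters TGTTTAC and TGTTTGC, searched on both strands and not overlapping each other, occurred in none of the 13 windows, beside 7.17% of all 35116 RefSeq promoter windows of 300 bases. The GC box GGGCGG, searched on both strands, occurred in 7 of the 13 windows, beside 45.0% of all windows. Some windows of CAV1 and of PACSIN2 overlap, so these tallies count shared bases more than once and are not comparable with the share over all windows. Sites outside the windows, and those of CAVIN1 and CAVIN3, were not searched. The GC box was in every window of CAV1, CAV2 and EHD2, in 1 of the 6 windows of PACSIN2 and in none of CAVIN2. The search for GC boxes was added after the expression values were seen. The windows of the 5 genes ranged from 47.0% to 82.7% G and C, beside a median of 58.7% over all windows.

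Both caveolins were lower after treatment, by similar amounts. CAV1 (ENSG00000105974, chr7:116524785-116561184, plus strand) encodes caveolin-1, the caveolin without which caveolae do not form in most non-muscle cells. Its FPKM was 157.8, 161.5 and 160.3 in DMSO libraries A, B and C, and 103.9, 106.9 and 107.1 in AS1842856 libraries A, B and C. The DMSO libraries lay within a narrow band, and every treated library was well under it. CAV1 was 66.3% of its DMSO level, a 1.51-fold lower level with a log2 fold change of -0.59 (SE 0.034). In RNA from whole cultures, fewer cells that carry a transcript and less of it per cell cannot be told apart.

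CAV2 (ENSG00000105971, chr7:116287380-116508541, plus strand) encodes caveolin-2, which joins caveolin-1 in mixed oligomers and depends on it to leave the Golgi. Its FPKM was 29.4, 30.7 and 30.0 in the DMSO libraries and 22.6, 20.4 and 20.6 in the AS1842856 libraries. All treated libraries were low, with library A the highest of them. CAV2 fell 1.42-fold (log2 fold change -0.50, SE 0.039, edgeR adjusted p = 5.85e-28, 3 against 3 libraries). CAV1 made up 84.2% ± 0.130 (SD, n = 3) of the summed caveolin FPKM in DMSO and 83.3% ± 1.04 (SD, n = 3) after treatment, a difference between means within the spread of the treated libraries. The CAV1 to CAV2 ratio was 5.37, 5.27 and 5.34 in DMSO and 4.60, 5.24 and 5.20 after treatment. AS1842856 library A was the low one of the 6.

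The cavins held both the most abundant member and the one with the largest fall. CAVIN1 (ENSG00000177469, chr17:42402452-42423517, minus strand) encodes the main coat protein, required for caveolae to form. Its FPKM was 234.6, 221.1 and 234.6 in the DMSO libraries and 97.5, 95.7 and 96.2 in the AS1842856 libraries. CAVIN1 was the most abundant of the 7 in every DMSO library and lay below CAV1 in every treated library. CAVIN1 fell 2.39-fold (log2 fold change -1.25, SE 0.034, edgeR adjusted p = 1.19e-99), and 4.22% of tested genes had a lower log2 fold change.

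CAVIN2 (ENSG00000168497, chr2:191834302-191847255, minus strand) encodes serum deprivation response protein, a cavin that curves membranes and is prominent in endothelium. It was the least abundant member by FPKM in both groups, although CAVIN3 had fewer counts in each DMSO library. CAVIN2 had 489, 333 and 358 counts in the DMSO libraries and 41, 50 and 34 counts in the AS1842856 libraries. Its FPKM was 6.86, 6.66 and 5.93 in DMSO and 0.758, 0.674 and 0.586 after treatment. Every treated library lay far below the lowest DMSO library. CAVIN2 fell 9.64-fold (log2 fold change -3.27, SE 0.14, edgeR adjusted p = 1.32e-63), and 50 of the 14338 tested genes had a lower log2 fold change. On log2(FPKM + 1), a scale that compresses changes of low genes, the difference was -2.16.

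CAVIN3 (ENSG00000170955, chr11:6318946-6320647, minus strand) encodes a cavin that binds caveolin-1 and protein kinase C delta. Its counts were 393, 265 and 288 in DMSO and 170, 229 and 213 after treatment. Its FPKM was 10.7, 10.2 and 9.22 in the DMSO libraries and 6.07, 5.96 and 7.09 in the AS1842856 libraries. The groups were separate, but the highest treated library, C, came closer to the lowest DMSO library, also C, than in CAVIN1 or CAVIN2. CAVIN3 fell 1.58-fold (log2 fold change -0.66, SE 0.11, edgeR adjusted p = 7.83e-09).

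The cavins did not keep their proportions. CAVIN1 was 93.3% ± 0.559 of the summed FPKM of the 3 cavins in DMSO and 93.2% ± 0.506 after treatment (SD, n = 3 each). CAVIN2 went from 2.63% ± 0.226 to 0.650% ± 0.0815, and CAVIN3 from 4.07% ± 0.333 to 6.16% ± 0.580. The share of CAVIN2 was thus lower and that of CAVIN3 higher in all treated libraries, while CAVIN1 remained the bulk of cavin transcripts.

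At the neck, the falls were smaller. EHD2 (ENSG00000024422, chr19:47713343-47743134, plus strand) had FPKM values of 68.1, 70.9 and 67.5 in DMSO and 54.4, 54.6 and 51.5 after treatment. The lowest DMSO library stood clear of the highest treated one. EHD2 fell 1.29-fold (log2 fold change -0.36, SE 0.037, edgeR adjusted p = 3.25e-18).

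PACSIN2 (ENSG00000100266, chr22:42835412-43015145, minus strand) had FPKM values of 20.4, 18.6 and 20.4 in DMSO and 17.3, 17.3 and 17.2 after treatment. The treated libraries were nearly equal, and DMSO library B came nearest to them. PACSIN2 fell 1.15-fold (log2 fold change -0.20, SE 0.048, edgeR adjusted p = 0.00011). Its annotated exons share 155 bases with ARFGAP3 on the same strand, a gene with 60.2% as many counts that also fell (log2 fold change -0.26, adjusted p = 3.52e-05), so reads of that stretch are uncertain between the genes.

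**Figure D2:**
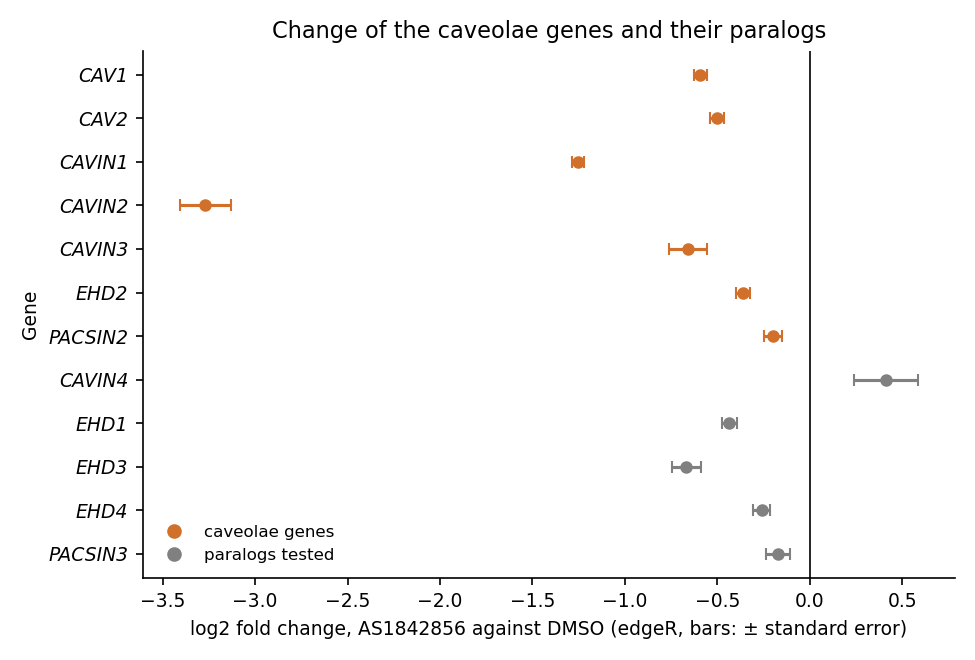
Log2 fold change of AS1842856 against DMSO (horizontal axis; bars ± SE from edgeR, 3 against 3 libraries) for the 7 caveolae genes (orange) and the 5 paralogs tested (grey). CAVIN2 at -3.27 and CAVIN1 at -1.25 stand to the left of the other members, and CAVIN4 is the gene to the right of 0.

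The order of levels in DMSO was CAVIN1, CAV1, EHD2, CAV2, PACSIN2, CAVIN3 and CAVIN2, and no neighbours overlapped between their 3 libraries. After treatment the order was the same except that CAV1 stood above CAVIN1. Counts per kilobase of merged exons gave the same order in both groups. Summed over the 7 members, FPKM went from 525.1 ± 4.76 to 301.5 ± 1.15 (SD, n = 3 each).

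Ratios within a library do not depend on how libraries are scaled. The CAV1 to CAVIN1 ratio was 0.673, 0.730 and 0.683 in DMSO and 1.07, 1.12 and 1.11 after treatment. It therefore crossed 1, a difference of 0.66 on the log2 scale, given as a description because CAV1 chose the group. The CAV2 to CAVIN1 ratio was 0.125, 0.139 and 0.128 in DMSO and 0.232, 0.213 and 0.214 after treatment, a log2 difference of 0.75. The CAVIN3 to CAVIN1 ratio was 0.0454, 0.0463 and 0.0393 in DMSO and 0.0623, 0.0623 and 0.0737 after treatment, a log2 difference of 0.60. CAVIN1 was thus lower relative to each of these partners in all treated libraries. The EHD2 to PACSIN2 ratio was 3.33, 3.80 and 3.32 in DMSO and 3.15, 3.16 and 2.99 after treatment, a log2 difference of -0.17. For the last 3 ratios the exact two-sided permutation test gave p = 0.10, the smallest it can give with 3 against 3 libraries, so none of these differences can pass 0.05.

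**Figure D3:**
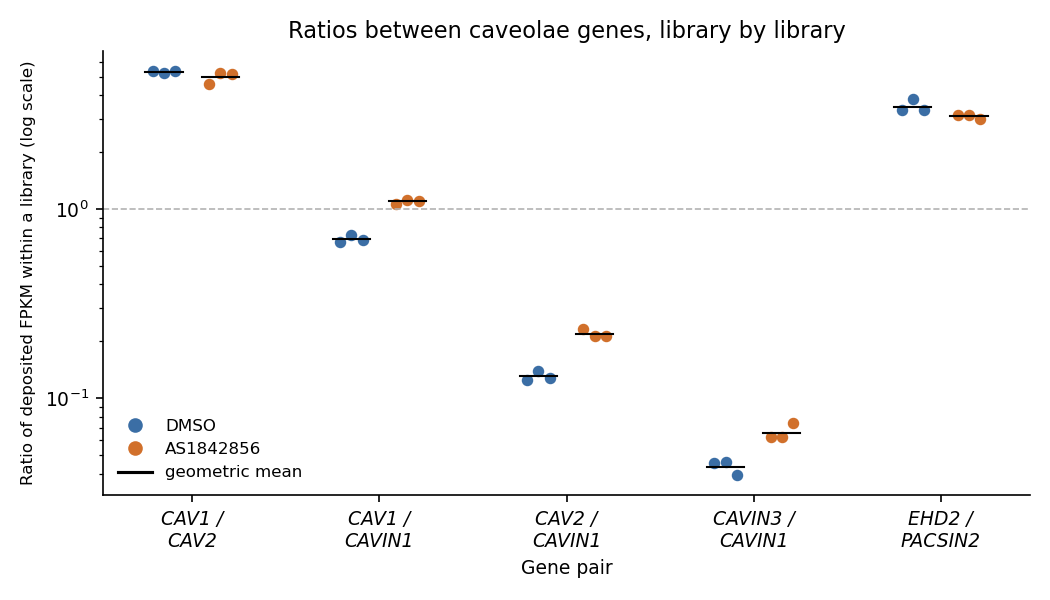
Ratio of FPKM between pairs of caveolae genes within each library (log axis; DMSO blue, AS1842856 orange, geometric means as black lines, dashed line at a ratio of 1). The CAV1 to CAVIN1 ratio lies below 1 in all DMSO libraries and above 1 in all AS1842856 libraries.

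Paralogs of the members were mostly lower as well. Of 7 paralogs, 5 were tested, 4 fell and 1 rose, with a median log2 fold change of -0.26, where 27.6% of all tested genes were called higher and 28.4% lower. EHD3, which acts in early endosome to Golgi traffic, fell most (log2 fold change -0.67, adjusted p = 2.38e-14). EHD1, which acts in endocytic recycling, fell by 0.44 on the log2 scale (adjusted p = 4.10e-22), and EHD4, another endosomal family member, fell by 0.26 (adjusted p = 1.75e-07). EHD1 went from 192.0 ± 4.31 to 142.0 ± 6.46 CPM, counts scaled to library size (SD, n = 3 each), with all treated libraries below all DMSO libraries. CAVIN4, the muscle cavin, had 78, 58 and 86 counts in DMSO and 72, 123 and 109 after treatment. Its groups overlapped, and its rise (log2 fold change 0.41, SE 0.17, adjusted p = 0.034) was lost with DESeq2 and without DMSO library A, DMSO library B, AS1842856 library B or AS1842856 library C, each of which left 0 paralogs higher. CAV3, the muscle caveolin, had 0 to 2 counts a library and PACSIN1, the neuronal family member, had 0, so neither was tested.

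Genes that phosphorylate caveolin-1, cut caveolae from the membrane or tie them to actin were tested as a further list. Of 9, 6 fell (66.7%, beside 28.4% of all tested genes), 0 rose (beside 27.6%) and 3 did not pass (median log2 fold change -0.22). SRC, a kinase of caveolin-1, fell most, from FPKM values of 9.94, 8.29 and 9.92 to 5.66, 5.74 and 5.28 (log2 fold change -0.76, adjusted p = 7.21e-27). ROR1, a receptor that scaffolds cavin-1 and caveolin-1, fell by 0.45 (adjusted p = 0.0087) and FYN, another Src family kinase, fell by 0.31 (adjusted p = 0.010) on the log2 scale. The count of 6 dropped to 3 with DESeq2. RHOA, the GTPase of stress fibres, had a log2 fold change of 0.01 and did not pass.

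Proteins of other membrane rafts were called in both directions. Of 9 genes, 8 were tested, with 5 falls (62.5%, beside 28.4% of all tested genes) and 2 rises (25.0%, beside 27.6%; median log2 fold change -0.20). CD59, a complement inhibitor with a lipid anchor, went from 8.68, 9.60 and 9.11 FPKM to 4.66, 4.83 and 4.58 (log2 fold change -0.96, adjusted p = 2.97e-47). THY1, another protein with such an anchor, fell by 0.72 (adjusted p = 1.05e-30) and FLOT1, a flotillin that scaffolds rafts apart from caveolae, fell by 0.54 (adjusted p = 7.68e-26) on the log2 scale. MAL2, which acts in transcytosis, rose from 16, 13 and 9 counts to 54, 58 and 47 (log2 fold change 2.02, adjusted p = 3.54e-09), and PAG1, a raft adaptor, rose by 0.21 (adjusted p = 0.023). The count of 2 rises was 1 with DESeq2 and without DMSO library A or AS1842856 library C.

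Receptors, channels and enzymes known to reside in caveolae gave 4 falls (57.1%, beside 28.4% of all tested genes) and 2 rises (28.6%, beside 27.6%) among 7 tested of 10. TGFBR1, the type I receptor of TGF-beta, went from 15.5, 16.3 and 14.9 FPKM to 9.82, 8.45 and 8.71 (log2 fold change -0.79, adjusted p = 7.81e-39). INSR, the insulin receptor, fell by 0.78 (adjusted p = 1.29e-10) and SCARB1, a lipoprotein receptor, fell by 0.26 (adjusted p = 2.21e-07) on the log2 scale. BMPR2, the type II BMP receptor, rose from 9.07, 8.60 and 8.33 FPKM to 12.8, 12.3 and 11.5 (log2 fold change 0.49, adjusted p = 5.23e-24), and KCNMA1, a potassium channel, rose by 0.25 (adjusted p = 1.64e-06). The median log2 fold change of this list, -0.21, turned to 0.25 with DESeq2. It was 0.026 without DMSO library B and 0.053 without AS1842856 library B. DESeq2 was run on all genes with a count, so its median also takes in NOS3 (0 to 2 counts a library) and SLC2A4 (5 to 17). The median is thus not over the same genes in each fit, and its sign was not stable.

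Clathrin coats are the other large route of endocytosis, and their genes were called in both directions. Of 21, all tested, 7 rose (33.3%, beside 27.6% of all tested genes) and 9 fell (42.9%, beside 28.4%), with a median log2 fold change of -0.06 that changed sign in the filtered fits on log2 FPKM and stayed negative in the unfiltered one. AP2M1, the cargo-binding subunit of the adaptor AP2, rose from 123.1, 116.8 and 118.2 FPKM to 159.5, 160.3 and 163.9 (log2 fold change 0.43, adjusted p = 2.06e-28). AP2A1, another AP2 subunit, rose by 0.31 (adjusted p = 3.03e-13) and CLTC, the clathrin heavy chain, rose by 0.22 (adjusted p = 3.36e-09). DAB2, an adaptor for lipoprotein receptors and integrins, went from 14.0, 13.5 and 13.7 FPKM to 5.31, 4.91 and 4.48 (log2 fold change -1.49, adjusted p = 3.19e-77). CLTCL1, the second clathrin heavy chain, fell by 0.73 (adjusted p = 5.39e-08), and FCHO1, an initiator of clathrin pits whose groups overlapped, fell by 0.86 (adjusted p = 0.0011) on the log2 scale.

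The lipids of caveolae were followed through genes of cholesterol and sphingolipid handling. Of 13 genes of cholesterol uptake, efflux and transport, 10 were tested, 6 fell (60.0%, beside 28.4% of all tested genes) and 2 rose (beside 27.6%). Their median log2 fold change was -0.19, and it was -0.30 without AS1842856 library C and -0.089 with limma on unfiltered log2(FPKM + 1). STARD4, a sterol carrier, fell by 0.47 (adjusted p = 1.14e-13), while STARD3, a late endosomal sterol carrier, rose by 0.30 (adjusted p = 3.16e-05) and SOAT1, which esterifies cholesterol, rose by 0.20 (adjusted p = 1.51e-05) on the log2 scale. Of 10 sphingolipid enzymes, 9 were tested, 5 rose (55.6%, beside 27.6% of all tested genes) and 3 fell (33.3%, beside 28.4%), with a median log2 fold change of 0.16. SMPD1, acid sphingomyelinase, rose from 10.8, 9.87 and 9.22 FPKM to 22.9, 23.1 and 24.6 (log2 fold change 1.23, adjusted p = 1.21e-51), and CERS2, a ceramide synthase, rose by 0.64 (adjusted p = 6.91e-41). SGMS1, a sphingomyelin synthase, fell by 1.13 (adjusted p = 5.14e-34) and UGCG, which makes glucosylceramide, fell by 1.12 (adjusted p = 1.45e-76). By smaller amounts, SPTLC2 rose by 0.31 (adjusted p = 5.10e-06) and SGMS2 fell by 0.39 (adjusted p = 0.00053) on the log2 scale.

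Of 8 transcription factors known at the CAV1 promoter, 5 rose (62.5%, beside 27.6% of all tested genes) and 3 fell (37.5%, beside 28.4%), with a median log2 fold change of 0.13. FOXO1, the target of the compound, went from 0.589, 0.777 and 0.653 FPKM to 2.20, 2.15 and 2.22 (log2 fold change 1.72, adjusted p = 4.16e-28), and FOXO3 from 6.12, 5.96 and 5.99 FPKM to 19.3, 18.9 and 19.5 (log2 fold change 1.67, adjusted p = 3.70e-96). FOXO4, at 14 to 40 counts a library, fell by 1.05 (adjusted p = 0.0039). Transcripts of these FOXO factors thus moved in both directions. PPARG, the adipogenic nuclear receptor, fell by 1.39 (adjusted p = 1.97e-34) and SREBF2, the activator of cholesterol synthesis, fell by 1.20 (adjusted p = 3.72e-77), while SP1 rose by 0.22 (adjusted p = 3.82e-06) on the log2 scale.

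**Figure D4:**
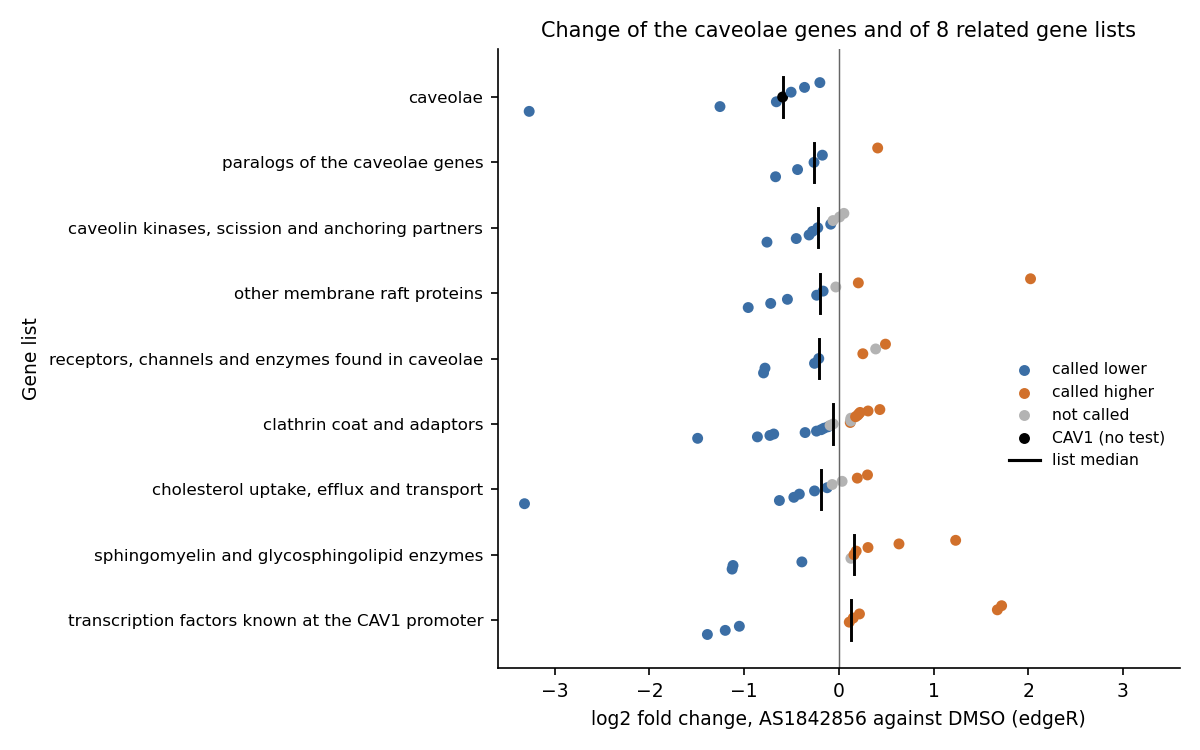
Log2 fold change of AS1842856 against DMSO (horizontal axis) of each tested gene in the caveolae list and 8 related lists, coloured by the edgeR call (blue lower, orange higher, grey not called, black CAV1 with no test), with list medians as black bars. The median bar of the caveolae list is the value of CAV1 itself, which chose the group, and the 6 other members have a median of -0.58.

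CAV1 and CAV2 are neighbours on chromosome 7 (GRCh38). Within 500 kb of CAV1, 29 genes are annotated and 7 were tested, and CAV1 and CAV2 had the lowest log2 fold changes of them. TES, a focal adhesion gene on the far side of CAV2, rose from 2.58 ± 0.863 to 3.84 ± 0.730 CPM (log2 fold change 0.61, adjusted p = 0.0098), with overlapping groups. MET, a receptor tyrosine kinase beyond CAV1, went from 314.0 ± 10.0 to 294.6 ± 8.36 CPM (log2 fold change -0.09, adjusted p = 0.023), also with overlap. CAPZA2, which caps actin filaments, did not pass (log2 fold change 0.07, adjusted p = 0.18), and ST7 rose by 0.26 (adjusted p = 0.011). ST7-AS1, antisense to ST7, had 48 counts over all libraries and did not pass (adjusted p = 0.89). The lower level was thus seen in the caveolin pair and, by a small amount with overlap, in MET.

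**Figure D5:**
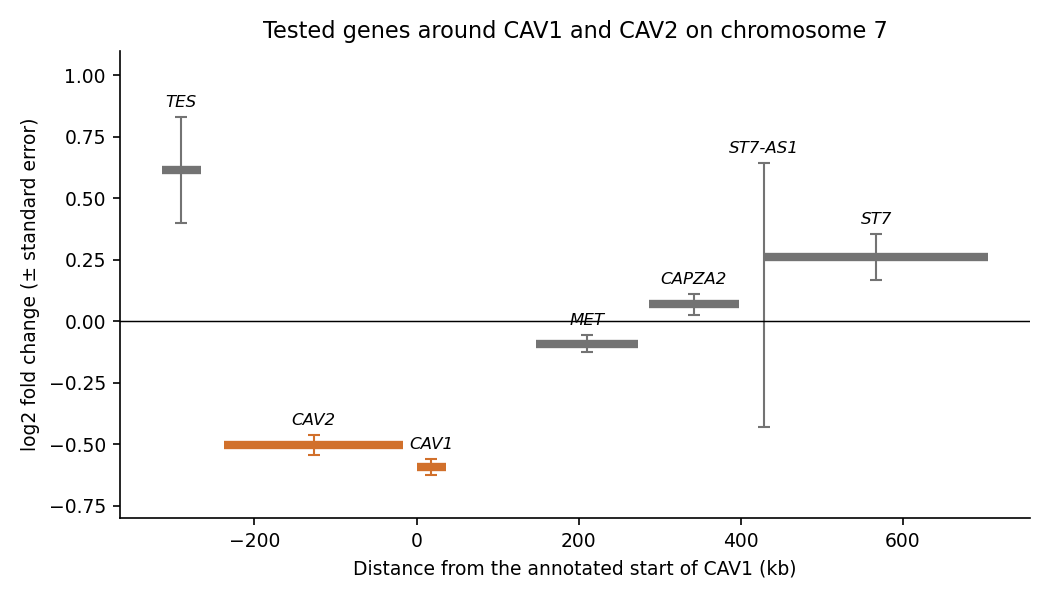
Log2 fold change (vertical axis, bars ± SE) of the tested genes around CAV1 against distance from the annotated start of CAV1 in kb, each gene drawn over its annotated length. CAV2 and CAV1 (orange) lie at -0.50 and -0.59, below the 5 other genes (grey).

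The pattern of CAV1 over the 6 libraries was shared by many genes. Among 9203 genes with a mean of at least 10 CPM, the Pearson correlation with CAV1 on log2 CPM was highest for ARHGEF28 (0.99981), FGF1 (0.99959), HJURP (0.99958), OSBPL3 (0.99952) and PIEZO1 (0.99938). These values rest on 6 libraries that fall into the 2 groups, and 524 genes exceeded 0.99. PIEZO1, a stretch-activated channel, went from 133.0 to 73.0 CPM (log2 fold change -0.86). Of the other members, CAVIN1 ranked 227 (0.995), CAVIN2 414 (0.992), EHD2 931 (0.979), CAV2 1135 (0.972), CAVIN3 1486 (0.957) and PACSIN2 2163 (0.906).

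Markers were read to check the cell type. Mesenchymal genes were abundant, with a summed FPKM of 600, 605 and 589 in DMSO and 459, 456 and 451 after treatment, most of it from VIM, SPARC and CD44. VIM, the intermediate filament of mesenchymal cells, fell by 0.34, CD44, a hyaluronan receptor, fell by 0.45 and SPARC, a matrix glycoprotein, fell by 0.47 on the log2 scale, while ZEB1, a transcriptional repressor of epithelial genes, rose by 0.50. All 4 were called, beside 28.4% of all tested genes called lower and 27.6% called higher. Of 7 epithelial and luminal markers, 3 were tested and all 3 fell, where 28.4% of all tested genes were called lower. The keratin KRT8 fell by 3.31, its partner KRT18 fell by 3.30 and the receptor ERBB2 fell by 0.90 on the log2 scale. Their summed FPKM went from 22.0, 21.1 and 19.9 to 4.10, 3.93 and 4.23, with KRT18 the most abundant in the DMSO libraries, and CDH1, ESR1 and PGR had at most 4 counts in any library and EPCAM at most 8. The part of these shifts in the caveolae result was not tested. Of cells rich in caveolae, the endothelial markers PECAM1, CDH5 and VWF had 0 to 3 counts, the adipocyte markers ADIPOQ, FABP4 and LEP had 0 and PLIN1 at most 5, and the muscle markers DES, MYH7, MYOG and ACTA1 at most 4, with MYH11 at 5 to 16.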

How the data were processed

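RNA-Seq of 3 DMSO and 3 AS1842856 libraries of BT549 cells was used. The authors aligned the reads by STAR. They deposited unnormalized read counts for every gene, and the authors also deposited FPKM values. The submitters' processing notes also list CASAVA, Bowtie 0.12.2 and the build GRCh38 (hg38). The counting tool, annotation and use of strand are not given in the sources used here. Gene identifiers, positions and exon overlaps were taken from GENCODE release 29 (GRCh38).

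Counts were fitted in R 4.3.3 with edgeR 4.0.16 (filterByExpr at min.count 10 and min.total.count 15, TMM scaling, glmQLFit with robust estimation, glmQLFTest, no block), and p-values were adjusted over 14338 genes. The common biological coefficient of variation was 0.0374. Alternatives were DESeq2 1.42.0, other scalings and filters, limma 3.58.1 on log2 FPKM with pseudocounts of 1 and 0.1, the replicate letter as a block, and each library left out. The fits were first tested on simulated data. P-values weigh the difference between the groups against the spread between these libraries, which was estimated with information shared across genes.

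The members and lists were chosen with earlier results of these data known, and lists were written from general knowledge. In each list the 3 largest rises and 3 largest falls with a mean of at least 1 CPM were named, beside marker genes, all tested genes within 500 kb of CAV1 and the 5 genes most correlated with it. RHOA and genes at or near 0 counts were named beside this rule, after their values were seen. Replicates differed by more than counting noise (chi-square per degree of freedom 2.38 to 3.28). Same-lettered libraries did not deviate together (correlations of -0.0099, 0.0054 and -0.038 for A, B and C), so letters were not taken as pairs. Protein sequences were not used here. Some single genes of the cholesterol list are counted but not reported by name here.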

Additional observations from a re-analysis of the deposited data

How the results depend on the processing

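All 7 caveolae genes were lower in each of the 15 alternatives, and the 6 other than CAV1 passed the test in each. The log2 fold change ranged from -0.61 to -0.58 for CAV1, -0.55 to -0.47 for CAV2, -1.29 to -1.25 for CAVIN1, -3.35 to -2.16 for CAVIN2, -0.74 to -0.58 for CAVIN3, -0.38 to -0.34 for EHD2 and -0.24 to -0.18 for PACSIN2. The lowest size for CAVIN2, 2.16, came on log2(FPKM + 1), where a pseudocount compresses low genes. With the replicate letter as a block, CAV1 was at -0.5932 and 7862 genes were called in place of 8029, with no change of call among the members. Over the alternatives, 3232 to 3978 genes were called higher and 3291 to 4130 lower.

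Other lists were less steady. The count of paralogs called higher, 1, was 0 with DESeq2, with no filter and with limma in each of 3 settings, and 0 to 1 with a library left out. The 6 falls among kinases, scission and anchoring partners were 3 with DESeq2 and with limma on unfiltered FPKM, and 4 to 5 with a library left out. The 2 rises among other raft proteins were 1 with DESeq2, with no filter, with a mean of at least 50 counts and with limma in each of 3 settings, and 1 to 2 with a library left out. The 2 rises among receptors and channels were 1 with limma on unfiltered FPKM, and 2 to 3 with a library left out (3 without AS1842856 library B). The median log2 fold change of that list, -0.21, was 0.2539 with DESeq2, 0.2398 with no filter, 0.01202 with limma on unfiltered FPKM, and -0.2689 to 0.05323 with a library left out (0.02623 without DMSO library B). The median of the clathrin list, -0.06, was 0.02203 on log2(FPKM + 1) and 0.03122 on log2(FPKM + 0.1). The median of the cholesterol list, -0.19, was -0.08903 with limma on unfiltered FPKM and -0.2955 to -0.1355 with a library left out, the former without AS1842856 library C. More low genes enter with DESeq2 and without a filter, so those medians are taken over other sets of genes. Other causes were not tested. With 3 libraries a group, genes with few counts such as CAVIN4 (SE 0.17) and FCHO1 (SE 0.24) were among the less precise ones named.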
